A study of Homo sapiens with 6 samples.

Results

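The genes described here are HOXA3, HOXA4, HOXA5, HOXA6, HOXA7, HOXA9, HOXA10, MEIS1, PBX3 and MEF2C, the homeobox programme and its partners that MLL fusion proteins maintain in leukaemia. They were taken from the deposited count table by gene symbol, and all 10 were found among its 23710 genes. The cells were THP-1, an established human line from an acute monocytic leukaemia that carries the MLL-AF9 fusion, so every library of both groups holds that fusion. One group received 10 uM mebendazole, a benzimidazole anthelmintic that binds tubulin, for 6 h, and the other received the DMSO vehicle for 6 h. RNA-seq libraries were made from total RNA in 3 numbered pairs, each of 1 mebendazole and 1 DMSO library. Nothing in the labels ties the pairs to separate cultures, and p-values therefore measure only the spread between these libraries, which may be technical. A single cell line was studied, with no line that lacks the fusion.

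The HOXA genes encode transcription factors that are active in haematopoietic stem and progenitor cells and are normally shut down as myeloid cells mature. MLL (KMT2A) is a histone methyltransferase that keeps this cluster open, and fusion of MLL to AF9 (MLLT3) recruits elongation factors and the methyltransferase DOT1L to the same genes. HOXA9 protein binds DNA together with MEIS1 and PBX3, homeobox proteins of the TALE class that act as its cofactors, and MEF2C is a MADS-box factor that MLL fusions also switch on.

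The libraries held between 13420558 and 15727667 counted reads. Counts were expressed as CPM, a gene's reads relative to the library's total after TMM scaling, and tested in edgeR's quasi-likelihood test with the pair as a term and Benjamini-Hochberg adjustment over 13591 genes, and a gene was called at an adjusted p under 0.05. Mebendazole was accompanied by a change in most genes, since 11192 were called and 5521 of them were higher. Spearman correlations between libraries were at least 0.997 within a group and between 0.886 and 0.889 across groups. The median log2 change of all tested genes was -0.03. Of the 10 monocyte markers listed, 10 were tested, 2 were higher and 6 were lower. Calls in either direction were 80% of them, beside 82.3% of all tested genes. The summed level of the markers was 2022 to 2150 CPM in DMSO and 2018 to 2068 CPM in mebendazole. The 6 lower markers had log2 changes of -1.76 (CD33), -1.08 (FCGR1A), -1.06 (CD14), -0.695 (LYZ), -0.63 (ITGAM) and -0.42 (CSF1R). The 2 higher ones were SPI1 (0.98) and CD68 (0.10), and CD4 and MPO were not called. The 8 lymphocyte markers summed to 16.6 to 18.4 CPM in DMSO and 26.2 to 27.1 CPM in mebendazole, most of it from NKG7 (log2 change 0.82). CD79B, the other tested lymphocyte marker, was lower (-2.57, from 94 to 13 reads), but only its DMSO libraries had enough reads for it to be tested. MS4A1 had 0 reads in DMSO and 3 in mebendazole. The 9 epithelial and stromal markers summed to 91.9 to 102.8 CPM and 128 to 150 CPM, most of it from PECAM1, which monocytes also express, and COL1A2 had no read. The 7 erythroid and megakaryocyte markers summed to 0.678 to 1.05 CPM and 0.92 to 1.57 CPM, with HBA1 at no read. The part of these markers in the results below was not tested. In bulk RNA, fewer cells of a type and less RNA per cell cannot be told apart.

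Among the 10 genes, HOXA9, HOXA10, PBX3 and MEF2C were called higher after mebendazole, HOXA5 was not called, and HOXA3, HOXA4, HOXA6, HOXA7 and MEIS1 had too few reads to be tested. None of the 5 tested genes was called lower in edgeR, none had a lower value at an unadjusted p under 0.05, and DESeq2 also called 0 lower, with 1 gene (HOXA4) lower at an unadjusted p. The 4 calls are 80% of the 5 tested genes, beside 82.3% of all tested genes called in either direction, so the share called is near the background. By direction, 40.6% of all tested genes were called higher and 41.7% lower. With a change of at least 2-fold required as well, 1 of the 5 (HOXA9) was called, beside 30.4% of all tested genes, of which 15.5% of tested genes were higher and 14.8% lower. The median log2 change of the 5 tested genes was 0.56. The 5 that could not be tested are as much members as those that could, so these counts describe the well-read genes only. The share of all tested genes whose groups do not overlap was not counted. Separation of the groups, given below for single genes, is therefore not known to be particular to them. The plot of levels by library shows each gene on its own scale.

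**Figure D1:**
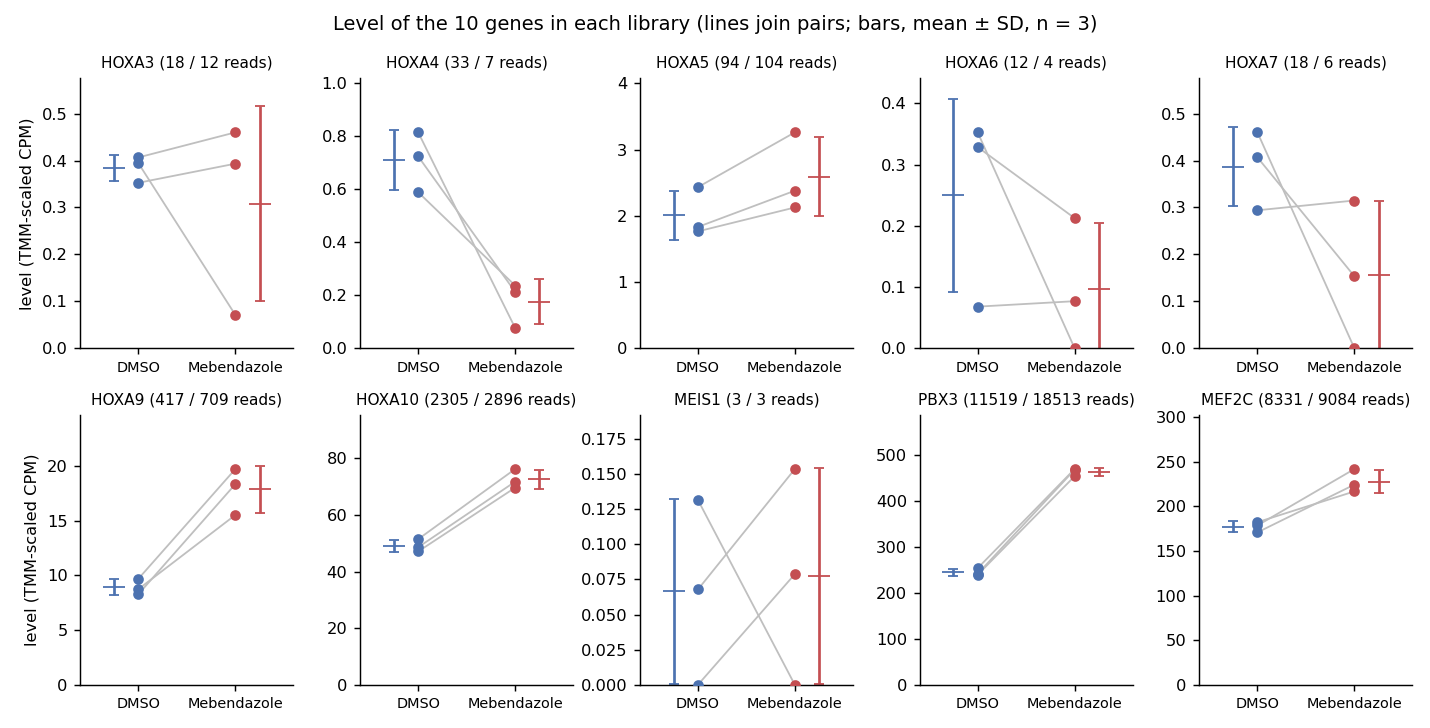
Level of each of the 10 genes in the 6 libraries, as TMM-scaled CPM on linear axes that start at 0. Points are libraries, grey lines join the pairs, bars give the mean ± SD (n = 3), and panel titles give summed reads in DMSO and mebendazole. HOXA9, HOXA10, PBX3 and MEF2C have every mebendazole point above every DMSO point, HOXA4 has the reverse, and MEIS1 rests on 3 reads in each group. The share of all tested genes with such separation was not counted, and 82.3% of them were called.

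HOXA9, the homeobox factor most closely tied to MLL leukaemia, was read at 8.74, 9.69 and 8.29 CPM in DMSO libraries 1, 2 and 3 and at 15.5, 19.7 and 18.3 CPM in mebendazole libraries 1, 2 and 3. Every mebendazole library stood above every DMSO library, and the first mebendazole library was the lowest of its group. These levels came from 133, 143 and 141 reads in DMSO and 219, 257 and 233 reads in mebendazole. The mean rose from 8.91 ± 0.72 to 17.9 ± 2.14 CPM (SD, n = 3), a log2 change of 1.00 (SE 0.10; edgeR adjusted p = 7.7e-15), or 2.00-fold. That value lies on the 2-fold line. It fell to 0.76 with library totals in place of TMM and to 0.93 without pair 3. With no filter on low counts it was 0.986, and at a mean CPM of 10 or more it was 0.968. The gene's place among the 2-fold calls therefore depends on the scaling, the filter and that pair.

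HOXA10, the neighbour of HOXA9 in the cluster and likewise a stem and progenitor cell factor, was more abundant. Its levels were 51.5, 47.1 and 48.6 CPM in DMSO and 76.2, 69.7 and 71.8 CPM in mebendazole. The groups did not overlap, and the 3 pairs gave nearly the same log2 ratio, 0.57, 0.56 and 0.56. The mean rose from 49.1 ± 2.21 to 72.6 ± 3.36 CPM (log2 change 0.56, SE 0.05; edgeR adjusted p = 3.6e-16), or 1.48-fold. The change was not past the test against a 1.5-fold change (adjusted p = 0.71), and it was 0.32 on the log2 scale with library totals. HOXA10 had 5.54 ± 0.59 reads for each HOXA9 read in DMSO and 4.12 ± 0.71 in mebendazole. The ratio was 5.89, 4.86 and 5.87 in the DMSO libraries and 4.91, 3.53 and 3.91 in the mebendazole libraries. It was lower in mebendazole in each of the 3 pairs, although the groups overlapped, and it was not tested. In RefSeq, HOXA9 and HOXA10 share sequence with the HOXA10-HOXA9 read-through gene, which had 0 reads, and HOXA10 with the antisense RNA HOXA10-AS. The sources used here do not give how the counting treated shared reads and strand, so the split between these genes is uncertain.

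The reference windows just upstream of these genes are shown because HOXA9 and HOXA10 rose together while MEIS1 was at the limit of detection. Windows of 250 bases before each annotated start, from RefSeq on GRCh38.p14, were found for 9 of the 10 genes (22 windows), and none for HOXA5. They are printed 5′ to 3′ on the gene's own strand for HOXA9 (chr7:27165538-27165787, minus strand), the downstream start of HOXA10 (chr7:27174321-27174570, minus strand), PBX3 (chr9:125747933-125748182, plus strand) and MEIS1 (chr2:66434875-66435124, plus strand), none of which overlaps a GENCODE exon by 10 bases or more. Capitals mark matches on either strand to TATAAA, the core promoter box of many regulated genes. They also mark TTTATNG, bound by posterior HOX proteins, the MEIS core TGACAG, and the composite PBX-HOX site TGATTNAT.
HOXA9: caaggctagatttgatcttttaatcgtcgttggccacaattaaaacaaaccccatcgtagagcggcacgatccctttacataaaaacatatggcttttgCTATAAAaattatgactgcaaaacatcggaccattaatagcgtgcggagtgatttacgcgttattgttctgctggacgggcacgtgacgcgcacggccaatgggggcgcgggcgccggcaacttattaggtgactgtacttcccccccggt
HOXA10: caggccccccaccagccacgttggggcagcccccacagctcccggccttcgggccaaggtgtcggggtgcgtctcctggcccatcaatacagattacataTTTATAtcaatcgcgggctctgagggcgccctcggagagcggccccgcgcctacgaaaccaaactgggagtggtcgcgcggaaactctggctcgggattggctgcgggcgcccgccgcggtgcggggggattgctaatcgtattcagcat
PBX3: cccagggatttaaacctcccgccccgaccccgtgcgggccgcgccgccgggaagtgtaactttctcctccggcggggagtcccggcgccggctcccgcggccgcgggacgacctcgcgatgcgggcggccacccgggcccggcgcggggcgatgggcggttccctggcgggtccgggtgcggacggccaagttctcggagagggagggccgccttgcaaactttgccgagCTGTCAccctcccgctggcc
MEIS1: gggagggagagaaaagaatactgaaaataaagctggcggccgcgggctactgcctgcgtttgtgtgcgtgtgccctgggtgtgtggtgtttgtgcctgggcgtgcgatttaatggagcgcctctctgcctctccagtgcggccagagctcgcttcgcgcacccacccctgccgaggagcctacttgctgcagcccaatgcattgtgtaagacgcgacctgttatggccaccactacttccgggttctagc
The HOXA9 window holds CTATAAA, in which TATAAA begins 150 bases before the start and overlaps a reverse match to TTTATNG. The HOXA10 window holds TATAAA on the reverse strand at the same distance of 150 bases. A further HOXA10 window, chr7:27179862-27180111, which lies in an exon of a longer HOXA10 transcript and is not printed, also holds CTATAAA, with TATAAA 222 bases before the start. The TATAAA match nearest to a start was in a HOXA3 window that is not printed, at 29 bases. Whether any of these matches acts in a promoter was not tested. The PBX3 window holds a reverse match to TGACAG 20 bases before the start, and the MEIS1 window holds none of the 4 motifs. Over 35116 windows of all genes, 10.7% held TATAAA, 8.93% TTTATNG, 13% TGACAG and 2.48% TGATTNAT, and of the 22 windows of the listed genes 4, 6, 5 and 0 did. HOXA3 and MEF2C had 7 of the 22 windows each, so these counts weigh those 2 genes most, and enrichment was not tested. In all 8 motifs were searched, and the 4 in capitals were kept after the matches had been seen. The other 4 were TGATNNAT (6.47% of all windows), TTTATGG (2.30%), CCAAT (32.0%) and CCGCCC (42.6%). CCAAT lies in the HOXA9, HOXA10 and MEIS1 windows, and CCGCCC 3 times in the PBX3 window. CG dinucleotides numbered 20 for HOXA9, 24 for HOXA10, 36 for PBX3 and 16 for MEIS1, against a median of 11 over all windows. A match describes letters only.

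PBX3, the TALE cofactor that stabilises HOXA9 and MEIS1 on DNA, was the most abundant of the 10. It stood at 254, 240 and 242 CPM in DMSO and at 470, 454 and 469 CPM in mebendazole. The groups lay far apart relative to their spread, with each group within a narrow band. The mean rose from 245 ± 7.75 to 464 ± 8.71 CPM (log2 change 0.92, SE 0.03; edgeR adjusted p = 5.2e-36), or 1.89-fold, and the pair ratios were 0.89, 0.92 and 0.95 on the log2 scale. The call held in the test against a 1.5-fold change (adjusted p = 1.8e-15), as did that of HOXA9 (adjusted p = 1.6e-05).

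MEF2C, a transcription factor of lymphoid and myeloid progenitors, showed a smaller difference. Its levels were 178, 171 and 182 CPM in DMSO and 242, 224 and 217 CPM in mebendazole. No mebendazole library overlapped the DMSO range, and the first stood above the other 2. The mean rose from 177 ± 5.82 to 227 ± 12.8 CPM (log2 change 0.36, SE 0.04; edgeR adjusted p = 1.1e-13), or 1.28-fold. This size depended on the scaling, since it was 0.12 with library totals (adjusted p = 0.0039), and it was not past the test against a 1.5-fold change (adjusted p = 1).

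HOXA5, a central HOXA gene also tied to myeloid differentiation, was low but tested. It had 37, 27 and 30 reads in DMSO and 46, 31 and 27 in mebendazole, or 2.43, 1.83 and 1.76 CPM against 3.26, 2.38 and 2.12 CPM. The groups overlapped, although the mebendazole library was the higher in each of the 3 pairs. The means were 2.01 ± 0.37 and 2.59 ± 0.60 CPM (log2 difference 0.36, SE 0.22; edgeR adjusted p = 0.12). The pair log2 ratios were 0.42, 0.38 and 0.27, and with this few reads the difference was not past the test.

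HOXA4, an anterior-to-central gene of the cluster, had the opposite direction on few reads. It had 11, 12 and 10 reads in DMSO and 3, 1 and 3 in mebendazole. The groups did not overlap. Summed over libraries, 33 reads against 7 gave a ratio of 0.25 after scaling (exact 95% interval 0.0933 to 0.575, counting error only). Without the filter on low counts the log2 change was -1.97 (edgeR adjusted p = 0.0042), and DESeq2 gave -2.03 (adjusted p = 0.06), so the call depends on the tool and the filter.

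The remaining HOXA members were near the limit of detection. HOXA3 had 6, 6 and 6 reads in DMSO and 1, 6 and 5 in mebendazole, a ratio of 0.786 (95% interval 0.345 to 1.72). HOXA6 had 5, 1 and 6 reads and then 3, 1 and 0, a ratio of 0.393 (0.0924 to 1.3). HOXA7 had 7, 6 and 5 reads and then 0, 2 and 4, also a ratio of 0.393 (0.128 to 1.03). In all 3 genes the groups overlapped and the interval included no change. In RefSeq the HOXA3 gene spans HOXA4, HOXA5 and HOXA6, so reads among these 4 genes may be shared.

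MEIS1, the TALE cofactor whose joint expression with HOXA9 is a hallmark of MLL leukaemia, was almost unread in these cells. It had 2, 1 and 0 reads in DMSO and 0, 2 and 1 in mebendazole. Both groups were at the floor of 3 reads per group, which equals 0.0639 CPM in DMSO and 0.0753 CPM in mebendazole, so no ratio is given. In name MEIS1 belongs to this programme, but these libraries gave it no measurable level in either group, while HOXA9 was read in all 6.

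Compared per kilobase of transcript, which allows levels of different genes to be set side by side, PBX3 stood highest in DMSO at 88.0 ± 2.78 CPM per kilobase, followed by MEF2C at 23.4 ± 0.77 and HOXA10 at 19.3 ± 0.87. HOXA9 followed at 4.32 ± 0.35, HOXA5 at 1.21 ± 0.22 and HOXA4 at 0.41 ± 0.07. HOXA6 (0.253 ± 0.160), HOXA7 (0.192 ± 0.042) and HOXA3 (0.113 ± 0.008) came next, while MEIS1 was last at 0.0155 ± 0.0153. The range of HOXA6 overlapped those of HOXA4, HOXA7 and HOXA3. In mebendazole PBX3 reached 166 ± 3.12 CPM per kilobase, MEF2C 30.1 ± 1.70, HOXA10 28.6 ± 1.32 and HOXA9 8.67 ± 1.04. MEF2C and HOXA10 then stood next to each other with ranges that overlapped (28.6 to 32.0 and 27.4 to 30). Of all reads on the 10 genes, PBX3 took 50.6% in DMSO (exact 95% interval 50 to 51.3, counting error only) and 59.1% in mebendazole (58.5 to 59.6), and MEF2C 36.6% (36 to 37.2) and 29% (28.5 to 29.5). Lengths came from the longest GENCODE transcript with a RefSeq match, and the isoform used by these cells was not measured.

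Along the HOXA cluster the reads lay almost entirely at its posterior end. HOXA9, HOXA10, HOXA11 and HOXA13 held 96.9% of the reads on the 10 coding genes from HOXA2 to HOXA13 in DMSO and 98.3% in mebendazole, and HOXA2 to HOXA7 held 3.09% and 1.68%. The summed level of the 10 genes was 124.9 ± 2.47 CPM in DMSO and 208 ± 6.27 CPM in mebendazole, with no overlap between groups. HOXA2 to HOXA7 together stood at 3.86 ± 0.42 CPM and 3.48 ± 0.30 CPM, with overlapping ranges. The plot of levels along the cluster shows this step between HOXA7 and HOXA9.

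**Figure D2:**
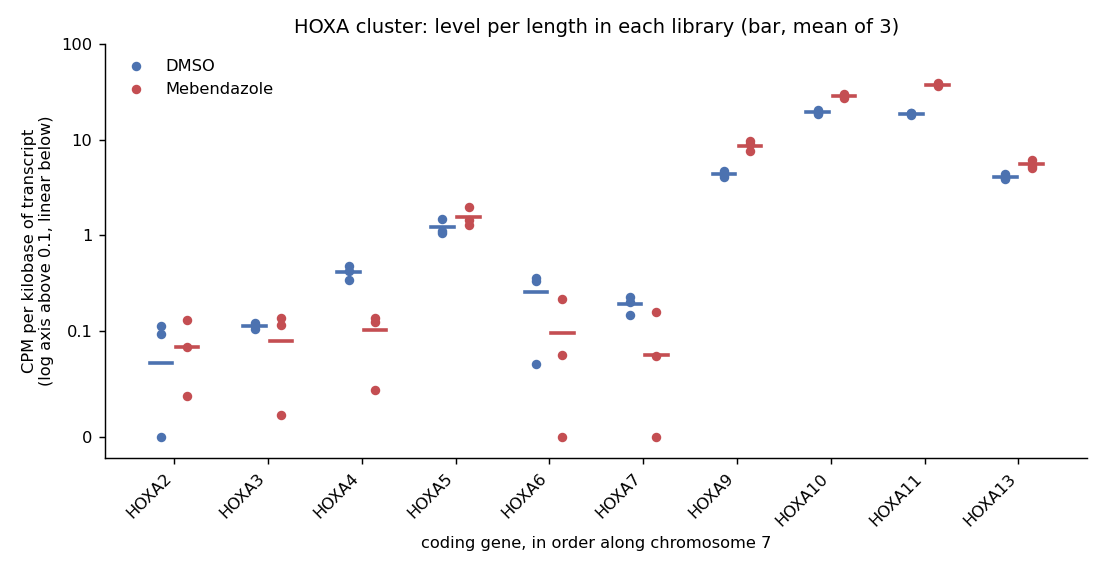
Level of the 10 coding genes from HOXA2 to HOXA13 in chromosomal order, in CPM per kilobase of transcript, on an axis that is logarithmic above 0.1 and linear below. Points are libraries, and bars are means of 3. HOXA9 to HOXA13 lie above 3 CPM per kilobase in every library, HOXA2 to HOXA7 lie below 2, and HOXA9, HOXA10, HOXA11 and HOXA13 have all mebendazole points above the DMSO points.

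The other transcripts of the cluster were compared in the same way. Of 14 listed, 12 were in the table, 7 were tested, 5 were higher and 1 was lower. The median log2 change was 0.61, beside -0.03 for all tested genes. Those called higher were 71.4% and the lower 14.3%, beside 40.6% and 41.7% of all tested genes. In either direction 85.7% were called, beside 82.3%. HOXA11, a posterior gene, was read at 43.1, 43.0 and 41.3 CPM in DMSO and 87.2, 82.7 and 89.1 CPM in mebendazole, a log2 change of 1.02 (SE 0.05; edgeR adjusted p = 2.8e-28). HOXA13, the last coding gene of the cluster, rose from 20.5 ± 1.33 to 27.6 ± 2.57 CPM (log2 change 0.43, adjusted p = 3.5e-07). The antisense RNAs HOXA11-AS (0.61) and HOXA-AS4, which RefSeq names HOXA10-AS (0.87), were higher too. The list of 14 held HOXA-AS4 and HOXA10-AS as separate names, and only HOXA-AS4 was in the table. In RefSeq HOXA10-AS overlaps HOXA10, and without strand the reads they share cannot be told apart. HOXA11-AS does not overlap HOXA11 there, and whether it does in the annotation used for counting is not given.

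The remaining transcripts had no common direction. HOTTIP, a long noncoding RNA transcribed from the posterior end that binds WDR5 of the MLL complex, was read at 8.74, 8.75 and 7.76 CPM in DMSO and 2.55, 3.07 and 2.91 CPM in mebendazole. It fell by 1.57 on the log2 scale (SE 0.15; edgeR adjusted p = 7.2e-15), while its neighbour HOXA13 rose. HOTAIRM1, a noncoding RNA of the anterior end that is linked to myeloid differentiation, was called higher (0.65, adjusted p = 0.0003), but its groups overlapped at 3.42, 5.42 and 2.59 CPM against 6.66, 5.22 and 5.82 CPM. EVX1, the homeobox gene beyond HOXA13, had 3 reads in DMSO and 12 in mebendazole, a ratio of 4.71 (95% interval 1.27 to 26), and HOXA2 had 6 in each group.

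Most genes of the other HOX clusters had few or no reads. Of 28 HOXB, HOXC and HOXD genes, 13 had no read, 24 were not tested, and the 4 tested were called lower, with a median log2 change of -1.605. HOXB4, a regulator of stem cell expansion, stood at 4.86, 5.08 and 5.11 CPM in DMSO and 2.48, 3.07 and 3.46 CPM in mebendazole (log2 change -0.74, edgeR adjusted p = 5.9e-05). HOXB3 stood at 6.32 ± 0.498 CPM in DMSO and 2.40 ± 1.14 CPM in mebendazole (log2 change -1.40). HOXB7 changed by -1.81 on the log2 scale, with 42 reads in DMSO and 10 in mebendazole. HOXB13 changed by -3.37, with 52 reads in DMSO and 4 in mebendazole. HOXB7 and HOXB13 passed the filter on low counts only through their DMSO libraries. That filter favoured a lower value for these 2 genes, and the median of the 4 includes them. In each of the 4 every mebendazole library was below every DMSO library. Of all tested genes 41.7% were called lower. The share of them without overlap was not counted, so it is not known whether this separation is particular to the 4. The difference between the clusters was not itself tested.

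The rest of the TALE class, to which MEIS1 and PBX3 belong, had no common direction. Of 10 genes 9 were tested, 3 were higher and 3 were lower, with a median log2 change of -0.01. Each direction held 33.3% of the 9, beside 40.6% higher and 41.7% lower among all tested genes. TGIF1, a TALE repressor of TGF-beta signalling, was read at 21.0, 23.9 and 21.6 CPM in DMSO and 95.6, 99.7 and 97.9 CPM in mebendazole, a log2 change of 2.14 (SE 0.06; edgeR adjusted p = 5.0e-44). Its relative TGIF2 changed by -0.16 (adjusted p = 0.0079).

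Within the MEIS family, MEIS2 had 310 reads in each group and was not called (log2 difference 0.24, adjusted p = 0.08), and MEIS3 rose by 1.90 (adjusted p = 2.2e-07) from 27 to 86 reads. The DMSO libraries alone would not have carried MEIS3 past the filter on low counts, which favoured a higher value for it. Around the PBX family, PBXIP1, a protein that binds PBX and blocks its DNA contact, changed by -0.45 (adjusted p = 1.3e-09). PBX2, the other abundant PBX gene, stood at 133 ± 3.54 CPM in DMSO and 142 ± 6.27 CPM in mebendazole (log2 change 0.10, adjusted p = 0.022), and this direction turned to -0.15 with library totals. PKNOX1 (PREP1), which competes with MEIS1 for PBX, had a log2 difference of -0.01 (adjusted p = 0.9), and PBX4 of -0.34 (adjusted p = 0.42). PKNOX2 had 1 read in DMSO and 10 in mebendazole (ratio 11.8, 95% interval 1.68 to 511). Per kilobase, MEIS2 stood at 1.36 ± 0.12 CPM and PKNOX1 at 6.26 ± 0.11 CPM in DMSO, both above MEIS1 in every library.

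Genes around MEF2C changed in both directions. Of 10 listed, 9 were tested, 5 were higher and 4 were lower, with a median log2 change of 0.28. These are 55.6% and 44.4% of the 9, beside 40.6% and 41.7% of all tested genes. In either direction 100% were called, beside 82.3%. The salt-inducible kinases, which phosphorylate class IIa histone deacetylases and so release MEF2, were higher: SIK1 rose from 20.6 ± 2.21 to 236 ± 10.8 CPM (log2 change 3.51, edgeR adjusted p = 2.5e-59), SIK2 by 1.90 and SIK3 by 1.66 on the log2 scale. Of the deacetylases that repress MEF2, HDAC9 changed from 96.8 ± 2.57 to 28.2 ± 0.66 CPM (log2 change -1.78, adjusted p = 2.9e-40) and HDAC4 by -0.99. MEF2A, a relative of MEF2C, rose from 50.9 ± 1.70 to 101 ± 2.78 CPM (log2 change 0.99, adjusted p = 6.5e-29). The other 3 called genes, MEF2D (0.28), HDAC7 (-0.23) and HDAC5 (-0.205), changed by less than MEF2C and were named after their values were seen.

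The fusion's own genes and cofactors were read in every library. MLL stood at 57.6, 59.3 and 56.6 CPM in DMSO and 85.2, 86.1 and 86.7 CPM in mebendazole, a log2 change of 0.57 (SE 0.05; edgeR adjusted p = 2.4e-17). MLLT3, which encodes AF9, stood at 8.35, 7.66 and 6.11 CPM and then at 10.4, 10.6 and 12.4 CPM, a log2 change of 0.60 (SE 0.12; adjusted p = 5.6e-06). Neither gene's groups overlapped, and both counts pool the normal transcript with the part that lies in the fusion transcript, which was not measured separately.

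Of the 31 genes of the MLL complex and the fusion's cofactors 31 were tested, and 18 were higher and 12 lower. Their median log2 change was 0.28. By direction 58.1% were higher and 38.7% lower, beside 40.6% and 41.7% of all tested genes. In either direction 96.8% were called, beside 82.3%. DOT1L, the H3K79 methyltransferase recruited by AF9, rose from 106 ± 3.09 to 398 ± 5.02 CPM (log2 change 1.90, adjusted p = 6.5e-52). The elongation scaffolds AFF4 (1.5) and AFF1 (0.95) and HEXIM1, the inhibitor of the elongation kinase P-TEFb (1.29), also rose. PSIP1, the chromatin tether LEDGF that brings MLL and menin to DNA, changed from 77.3 ± 0.42 to 38.2 ± 0.99 CPM (log2 change -1.01, adjusted p = 2.4e-27).

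Other genes reported as bound or driven by MLL fusions moved in both directions. Of 32 listed, 26 were tested, 12 were higher and 10 were lower, with a median log2 change of 0.03. These are 46.2% and 38.5% of the 26, beside 40.6% and 41.7% of all tested genes. In either direction 84.6% were called, beside 82.3%. MYB, the progenitor factor that MLL leukaemia depends on, was read at 235, 229 and 230 CPM in DMSO and 22.3, 23.5 and 26.3 CPM in mebendazole, and it fell by 3.27 on the log2 scale (SE 0.05; edgeR adjusted p = 3.6e-57). GFI1, a myeloid repressor that acts on HOXA9 targets, changed by -2.75, the receptor kinase FLT3 by -2.07 and the adaptor LMO2 by -1.43 (all adjusted p at or under 9.6e-38). RUNX1, a core haematopoietic factor, rose from 197 ± 6.82 to 446 ± 3.71 CPM (log2 change 1.18), and CPEB2, an RNA-binding protein, from 79.1 ± 4.27 to 387 ± 14.5 CPM (2.29). HOXA9, HOXA10, PBX3 and MEF2C stood on the opposite side of 0 from MYB, GFI1, FLT3 and LMO2, and on the same side as RUNX1 and CPEB2.

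Polycomb proteins silence HOX genes against MLL. Of 19 tested genes of PRC1 and PRC2, 13 were higher and 3 lower, with a median log2 change of 0.29. These are 68.4% and 15.8%, beside 40.6% and 41.7% of all tested genes. In either direction 84.2% were called, beside 82.3%. The PRC2 accessory subunits PHF1 (2.21) and PHF19 (0.66) and the PRC1 subunits PHC2 (1.78), BMI1 (1.6) and RNF2 (1.48) were higher, and CBX7, a chromodomain subunit of PRC1, was lower (-1.17), each with an edgeR adjusted p at or under 3.2e-17. BMI1 stood at 6.83 ± 0.34 CPM in DMSO and 20.7 ± 1.88 CPM in mebendazole. The plot of changes by list sets these groups beside each other.

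**Figure D3:**
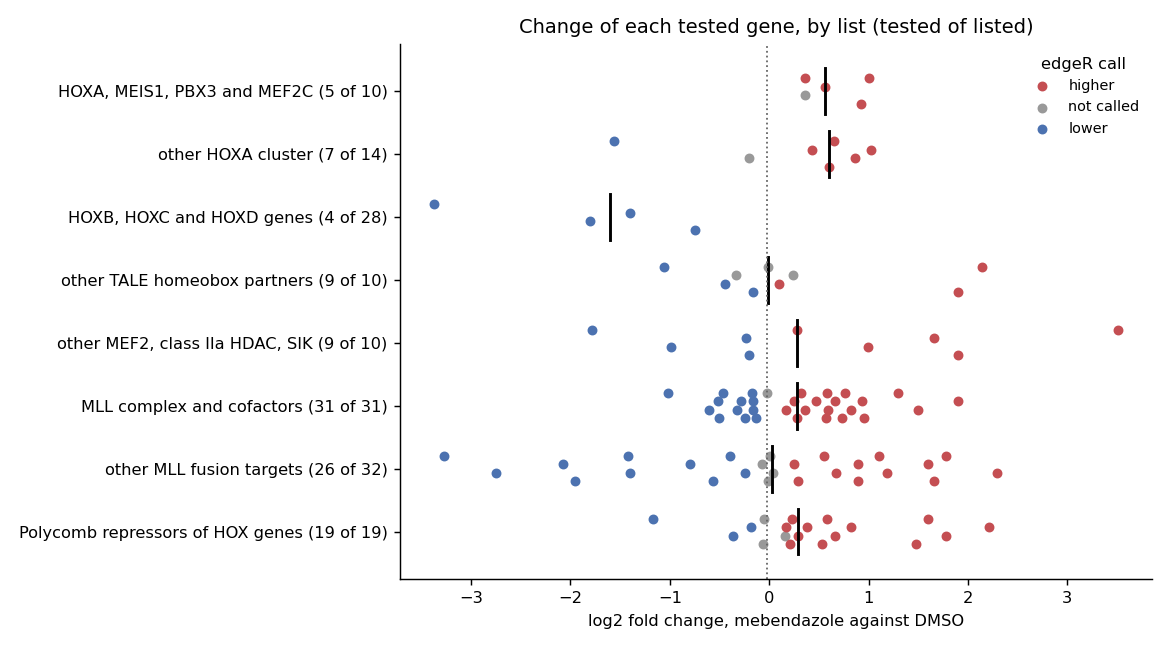
Log2 change of each tested gene, mebendazole against DMSO, for 8 lists; the numbers in brackets are genes tested of genes listed. Points are genes, coloured by the edgeR call, black bars are list medians, and the dotted line is the median of all tested genes (-0.03). The 5 tested members lie between 0.36 and 1.00, the 4 HOXB genes lie below -0.7, and the other lists reach to both sides of 0.

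The genes whose level followed that of HOXA9 most closely over the 6 libraries, by the root mean square difference in centred log2 CPM, were RUFY3 (0.04), FPR3 (0.06) and GFOD1 (0.06). RUFY3, an adaptor of endosome and lysosome transport, stood at 10.4 CPM in DMSO and 21.3 CPM in mebendazole, and FPR3, a formyl peptide receptor, at 1.00 and 2.34 CPM. The measure is dominated by the difference between the groups, and no such genes are given for MEIS1, which was not tested.

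The 4 calls among the members held their direction under every scaling, filter and tool tried and without any pair. The plot of the members' changes by processing choice shows that library totals lowered all 5 values and that the other choices moved them little. That scaling shifted the median of all tested genes by -0.24 on the log2 scale, and under it 36.4% of called genes were higher, against 49.3% with TMM.

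**Figure D4:**
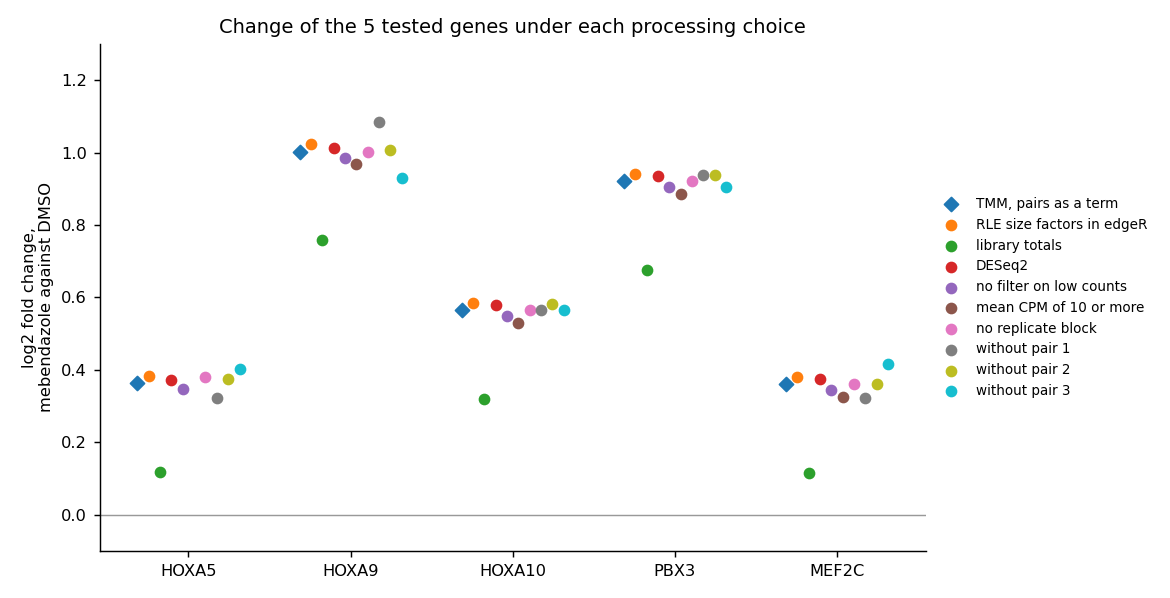
Log2 change of the 5 tested members under 10 processing choices. The diamond is the TMM fit with pairs as a term, circles are alternatives, and HOXA5 has no value at a mean CPM of 10 or more. With library totals the changes were 0.12 for HOXA5, 0.76 for HOXA9, 0.32 for HOXA10, 0.68 for PBX3 and 0.12 for MEF2C, and every point lies above 0.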

How the data were processed

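RNA-seq of 6 THP-1 libraries (3 mebendazole, 3 DMSO) was analysed from the table of raw read counts per gene that the authors deposited. STAR, bedtools, HTSeq and DESeq2 and the build hg19 are named in the submitters' processing notes. For the strand setting and reads in overlapping genes, no source used here gives the choice made. Counts were tested with edgeR 4.0.16 in R 4.3.3 (TMM, filterByExpr, glmQLFTest, the labelled pair as a term, Benjamini-Hochberg). The fit has 2 residual degrees of freedom and a prior of 61, so small p-values rest mostly on the spread pooled over genes. SE is the log2 change divided by the root of F. Members below the filter are given as ratios of summed reads with exact 95% intervals, which cover counting error only. Library totals of 13420558 to 15727667 reads set the precision. DESeq2 1.42.0, other scalings, filters, a 1.5-fold test and omission of each pair were alternatives. Named genes were all members, the read genes of the HOXA and TALE lists, the 6 with the smallest p of each other pathway list, MLL, MLLT3 and the 3 genes most like HOXA9. Marker genes given with values were named after their values were seen. The members and lists were chosen with earlier results of these data known. A few items that these rules would name are not reported here. The procedure was tested on simulated data in which few genes changed, equally in both directions, with a single dispersion and no pair effect. In the real data most genes were called, so the simulation cannot check the scaling.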

Additional observations from a re-analysis of the deposited data

How the results depend on the processing

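Of 51 named genes that were tested, 35 kept their direction and call in every alternative, and 46 did so apart from the test against a 1.5-fold change. That test left 5774 genes and 2 members called (HOXA9 and PBX3), with HOXA10 at 0.564 (edgeR adjusted p = 0.71) and MEF2C at 0.36 (adjusted p = 1). Without a filter on low counts 1 member was called lower, HOXA4, and over the fits that left out a pair this count ranged from 0 to 1, the 1 being HOXA4 without pair 3 (-2.32, adjusted p = 0.0031). The number of members called at least 2-fold was 0 with library totals and 0 at a mean CPM of 10 or more, where HOXA9 had 0.758 and 0.968. Without the filter and without pair 3 it stayed at 1, but the gene was HOXA4 in place of HOXA9 (0.986 and 0.929). Genes called at least 2-fold numbered 2310 at a mean CPM of 10 or more, against 4126, where fewer genes were tested. PBX2 reversed to -0.147 with library totals. With no replicate block, 11118 genes and 4 members higher were called, against 11192 and 4, and no call among the 10 genes changed. The labels state the pairs, but the deviations of same-numbered libraries correlated at only 0.001, 0.08 and 0.023. Where not named here, the cause of a difference between settings was not tested. Depth limits HOXA3, HOXA4, HOXA6, HOXA7 and MEIS1, each with 33 or fewer reads per group.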
